A study of Mus musculus with 20 samples.

Results

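Gene expression was compared between 5 tumors and 5 cultures of MB49 cells that lack the Y chromosome. MB49 is a carcinogen-induced bladder cancer line of a male C57BL/6 mouse. All 10 libraries carry the labels genotype Y NEGATIVE and cell type bladder cancer. The cultures (BN2, BN3, BN6, BN9 and BN10) were kept in DMEM with 10% fetal bovine serum. The tumors (MN11, MN12, MN13, MN14 and MN15) grew under the skin of WT C57BL/6 male mice, so their host cells carry a Y chromosome. The libraries were taken by these titles, 10 of the 20 in the series, and the other 10 are the Y-positive tumors and cultures of the same line. The age of the mice, the time of growth, the clone or pool that was injected and the relation of each tumor to a culture are not given in the labels. The labels also do not say which libraries came from separate animals or cultures, and a p-value covers no more than the spread of the libraries at hand, which may be technical.

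Cells moved from a dish into a living host meet other cells, a scaffold they do not make alone and a supply of oxygen, lipid and growth factor that differs from serum-fed medium. A tumor sampled whole also contains host leukocytes, vessels and stroma. Its RNA is therefore a mixture, and in such bulk samples more cells of a type and more RNA per cell cannot be told apart, nor can a change in the cancer cells be told apart from RNA added by the host.

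Read counts of genes listed in both the culture and the tumor tables were compared, with chromosomes X and Y left out. The host cells carry a Y chromosome that these cancer cells lack. This gave 14220 of the 14650 genes listed in both. The tumor tables list 13375 genes more, for which only tumor values are given here. Levels are CPM, read counts scaled to a common library size, after TMM scaling, in the order MN11 to MN15 for tumors and BN2, BN3, BN6, BN9 and BN10 for cultures. Folds are log2, tumor minus culture, with the standard error (SE) of the fit, and "rose" and "fell" refer to an adjusted p under 0.05 of edgeR's quasi-likelihood test. Genes at or near 0 in every culture entered the test only through their tumor reads. They could not be called lower, so their rise shows presence in tumors and no more.

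Libraries held 14856008 to 21180885 reads. The reads of the Y-linked gene Kdm5d came to 62, 45, 87, 49 and 50 in the tumors and to 0 in every culture, and those of Uty to 53, 85, 71, 42 and 70 in the tumors against 1 over all cultures. The cultures thus matched their label, while the tumors held RNA of cells with a Y chromosome. Reads outside the genes of both tables made up 1.10% to 1.32% of the tumor libraries and 0.117% to 0.359% of the culture libraries. The tumors fell into 2 sets: the slope of expression on gene length (log2 CPM per log2 length, relative to the mean of the 10 libraries) came to 0.158, 0.155 and 0.198 for MN11, MN13 and MN14 and to -0.195 and -0.181 for MN12 and MN15, outside the range of the cultures (-0.0957 to 0.0309). The mean slopes of tumors and cultures did not differ past the threshold (exact permutation test over all arrangements, p = 0.540, adjusted over 3 library measures p = 0.810). No label explains these sets. Where a named gene lost its call with either set left out, this is given beside the gene.

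Growth as a tumor was accompanied by differences in a large share of genes. Of 12727 genes tested, 6645 passed (52.2%), with 3219 higher in tumors (25.3%) and 3426 lower (26.9%). Against a fold of 2 (glmTreat), 956 were higher (7.51%) and 698 lower (5.48%). The tumor and culture values of 4670 genes did not overlap (36.7%). The median log2 fold change over all genes was -0.015. The split of the calls depended on the scaling: 48.4% of calls were higher with TMM, 58.5% with upper quartile scaling and 62.8% with library size alone, which shifted the median log2 fold change to 0.13 and 0.20. Tumor or culture growth cannot be told apart from differences between the 2 kinds of table, since every tumor is in one and every culture in the other.

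**Figure D1:**
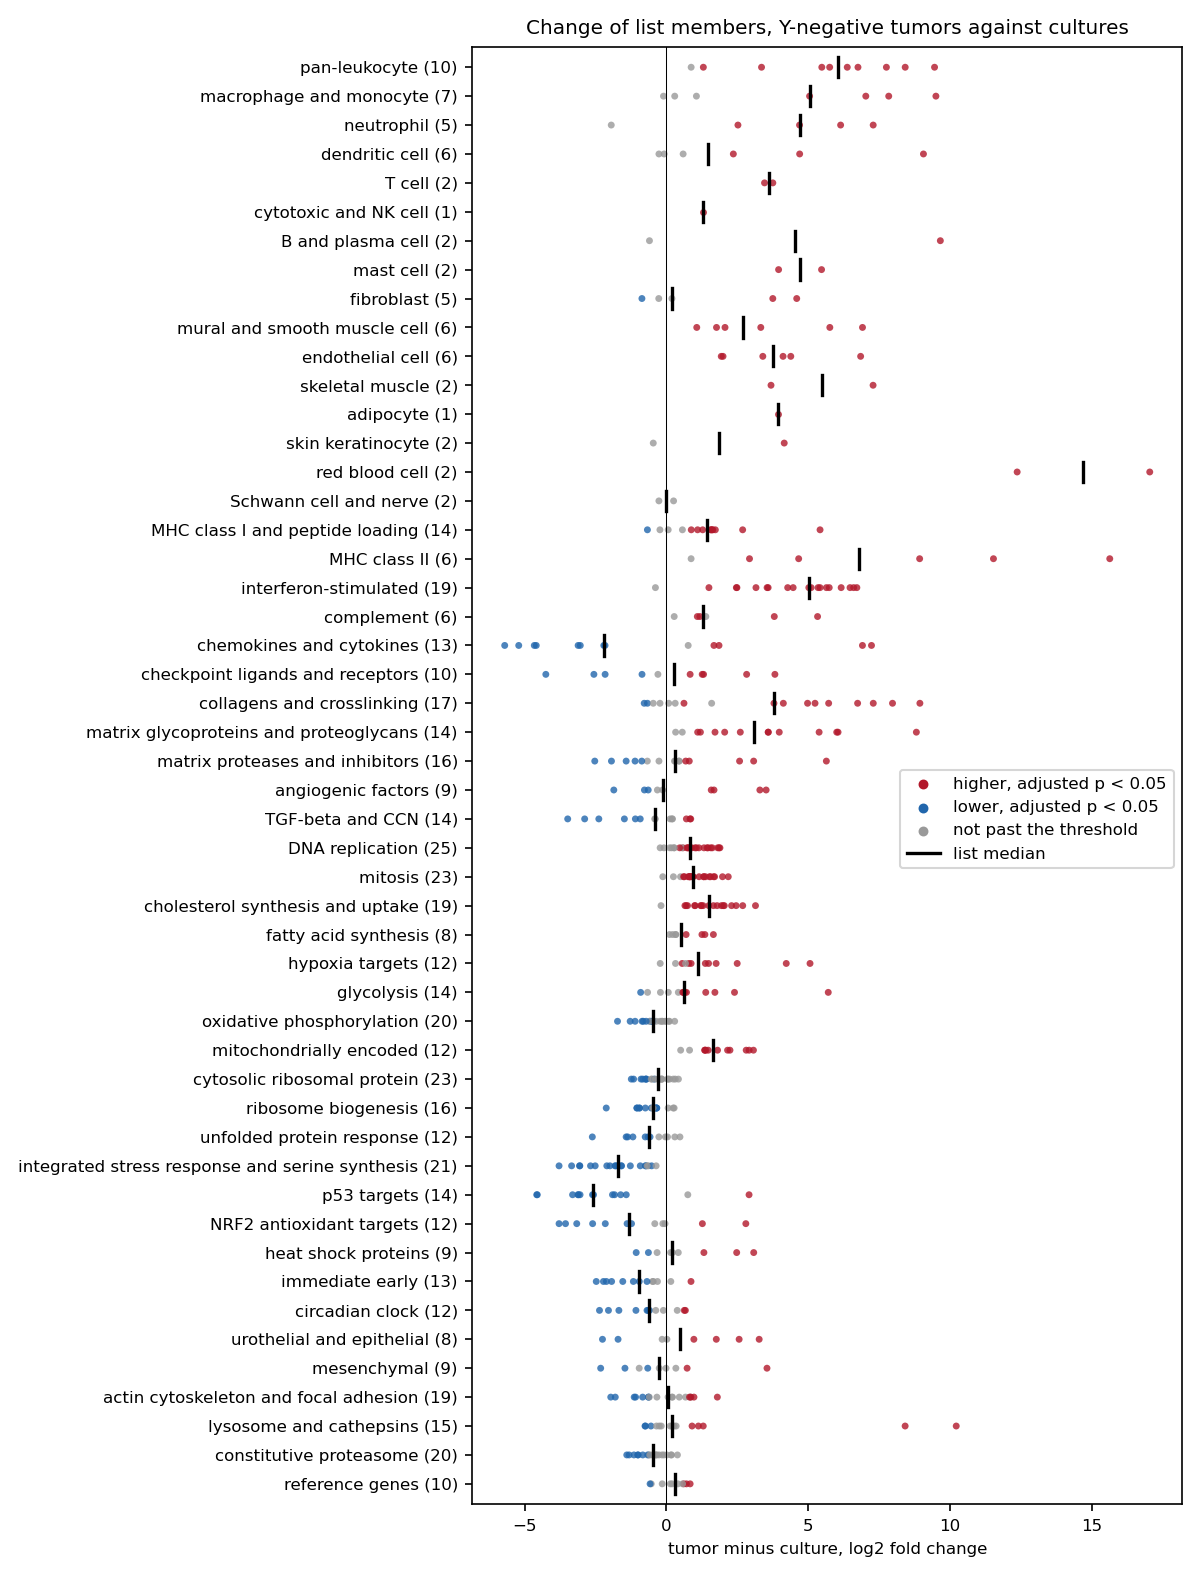
Log2 fold change, tumor minus culture, of each tested gene (point) of 50 gene lists, with the number tested in parentheses and the list median as a black bar. Leukocyte, endothelial, MHC class II and interferon lists lie on the right, and the p53 target and integrated stress response lists lie on the left.

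Some genes of leukocytes, such as Ptprc, were at or near 0 in the cultures and clearly present in every tumor. Of 10 tested pan-leukocyte genes, 9 rose and 0 fell, with a median log2 fold change of 6.07 beside the -0.015 of all genes. Ptprc, which encodes the leukocyte phosphatase CD45 (chr1:138062861-138175708, GRCm38 as all positions here), stood at 75.0, 75.1, 84.0, 66.8 and 84.7 CPM in tumors and 0, 0, 0.281, 0.118 and 0.118 CPM in cultures (log2 fold change 9.46 ± 0.40 (SE), adjusted p = 2.85e-09). The tumor values lay within a narrow band and far from every culture. The lysosomal membrane gene Laptm5 rose by 7.76, the cytoskeletal adaptor gene Hcls1 by 8.42, and the integrin chain Itgb2 by 5.48. The summed level of the 10 genes was 491 to 702 CPM in tumors and 20.9 to 40.9 CPM in cultures.

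Myeloid genes were among them. Of 7 tested macrophage and monocyte genes, 4 rose and 0 fell (median 5.05). The other 3 did not pass. The 7 genes summed to 1294 to 2736 CPM in tumors and 63.5 to 333 CPM in cultures, so the list as a whole was not silent in culture. Csf1r, the receptor for the macrophage growth factor CSF1, was measured at 96.4, 78.0, 122, 98.1 and 87.2 CPM in tumors and 0, 0.106, 0, 0.118 and 0.414 CPM in cultures (log2 fold change 9.51 ± 0.45 (SE), adjusted p = 7.87e-09). The lysozyme gene Lyz2 gave 492, 1003, 670.0, 497 and 1619.9 CPM in tumors against 1.49 to 6.31 CPM in cultures, and MN12 and MN15 were the highest (log2 fold change 7.84 ± 0.54 (SE), adjusted p = 2.05e-07). Apoe and Trem2, which are abundant in lipid-handling macrophages, rose by 7.03 and 5.05. The 14 further macrophage genes listed in the tumor tables were detected in all 5 tumors, among them the complement chain C1qa at 133 to 275 CPM and Adgre1, which encodes F4/80, at 38.0 to 51.8 CPM. Their levels in cultures were not compared here.

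Of 5 tested neutrophil genes, 4 rose and 0 fell (median 4.70). The calprotectin subunits S100a8 and S100a9 stood at 31.2, 77.5, 9.36, 17.6 and 72.9 CPM and 56.8, 137, 21.1, 35.4 and 106 CPM in tumors, and S100a9 gave 0 to 1.78 CPM in cultures. Both were highest in MN12 and MN15. Ly6g, the defining neutrophil surface gene, did not follow: it gave 0 to 1.12 CPM in tumors and 0.159 to 4.80 CPM in cultures (log2 fold change -1.95 ± 0.97 (SE), adjusted p = 0.107). Without MN12 and MN15, Ly6g passed as lower. Among 6 tested dendritic cell genes, 3 rose, led by the integrin Itgax (9.07) and the transcription factor Irf8 (4.70), while Flt3 was already at 22.6 to 69.1 CPM in the cultures and 24.4 to 45.4 CPM in tumors (log2 fold change -0.27 ± 0.27 (SE), adjusted p = 0.426), so this gene does not mark dendritic cells here.

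Lymphocyte genes were present at low levels. T cell genes were mostly listed in the tumor tables only, where all 16 were detected in each tumor: Cd3e at 2.21, 5.99, 5.91, 5.86 and 5.70 CPM and Cd3g at 6.19, 9.69, 8.44, 2.85 and 7.83 CPM. The 2 tested genes, which would not have entered the test on their culture reads, rose, Cd3d by 3.75 and Cd6 by 3.46. Cd3d gave 3.06, 10.9, 2.23, 1.40 and 13.1 CPM in tumors against 0 to 1.32 CPM in cultures, with MN12 and MN15 far above the rest, and its call was lost without those libraries. The cytotoxic granule genes Prf1, which encodes perforin, and Gzmb, which encodes granzyme B, stood at 2.65 to 9.87 and 6.54 to 23.5 CPM in tumors. A B cell marker was close to 0: Ms4a1, which encodes CD20, gave 0 to 0.839 CPM, although the heavy chain gene Ighm stood at 20.9, 20.7, 36.2, 21.5 and 20.7 CPM against 0 to 0.0563 CPM (log2 fold change 9.66 ± 0.45 (SE), adjusted p = 7.87e-09). Pax5, a B cell transcription factor, was read in cultures at 26.2, 25.1, 17.6, 0.296 and 18.5 CPM and in tumors at 14.2, 8.34, 10.7, 16.8 and 7.77 CPM (log2 fold change -0.60 ± 0.62 (SE), adjusted p = 0.434), and without BN9 it passed as lower (-0.92, adjusted p = 0.0104). Both tested mast cell genes rose, the carboxypeptidase Cpa3 by 3.96 and the histamine-forming enzyme Hdc by 5.47. Summed, they gave 0.0563 to 0.746 CPM in cultures, so they too entered the test through the tumors.

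Vessel genes rose in a body. All 6 tested endothelial genes rose (median 3.76) and none of their values overlapped between groups. Among all genes, 25.3% were higher and 36.7% did not overlap. Genes near 0 in every culture, such as Pecam1, entered the test through their tumor reads. Pecam1, the endothelial adhesion molecule CD31, stood at 29.8, 20.3, 27.6, 34.3 and 23.4 CPM in tumors and 0, 0.159, 0.507, 0.296 and 0.178 CPM in cultures (log2 fold change 6.85 ± 0.43 (SE), adjusted p = 9.90e-08). The VEGF receptor Flt1 rose by 4.39, the clotting carrier Vwf by 4.11 and the diaphragm protein Plvap, read at 6.10 to 13.5 CPM in cultures, by 1.93. All 6 tested genes of mural and smooth muscle cells rose (median 2.7): the pericyte gene Rgs5 stood at 34.5, 30.3, 37.9, 36.7 and 29.6 CPM against 0.115 to 0.732 CPM (log2 fold change 6.92 ± 0.38 (SE), adjusted p = 3.46e-08), and Notch3 and Acta2 rose by 3.33 and 5.76. With MN11, MN13 and MN14 left out, 3 of the 6 mural genes passed.

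Fibroblast, muscle, skin and blood genes differed in how they were spread over the tumors. Of 5 tested fibroblast genes, 2 rose, the collagen Col14a1 by 4.60 and the microfibril gene Mfap5 by 3.75. Pdgfra, a receptor used to mark fibroblasts, was read in both groups at 11.7 to 26.2 CPM in tumors and 12.4 to 51.2 CPM in cultures (log2 fold change -0.27 ± 0.35 (SE), adjusted p = 0.537), and the membrane mucin Pdpn fell (-0.87), a call lost without MN11, MN13 and MN14. The proteoglycan gene Dcn, listed in the tumor tables only, was abundant at 388, 407, 520.0, 361 and 365 CPM. Skeletal muscle genes separated 1 tumor from the others: Acta1 stood at 1.47, 63.7, 200.4, 96.4 and 49.3 CPM and the myosin Myh4 at 1.16, 41.6, 163, 97.6 and 19.2 CPM, with MN11 near 0 and MN13 the highest. The calcium pump Atp2a1 and the light chain Mylpf showed the same order of extremes among genes that could be tested, at 0.858, 17.5, 66.5, 31.2 and 13.2 CPM and 2.21, 29.9, 33.6, 15.4 and 31.1 CPM, and both passed (7.29 and 3.69). The epidermal keratin Krt14 rose to 17.2 to 26 CPM from 0.318 to 2.55 CPM, while its partner Krt5 was at 0 to 0.363 CPM in tumors. Adipoq, the fat cell hormone, was at 0.117 to 2.74 CPM. Schwann cell genes did not pass: Mbp and Ncam1 were as high in the cultures, and Sox10 was at 0 to 0.368 CPM in tumors.

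Haemoglobin transcripts marked blood in the tumors. Hbb-bs gave 463, 1308, 246, 462 and 2215 CPM in tumors and 0 reads over the 5 cultures, at least 26328-fold higher on a floor of 3 reads over the group. Hba-a1 gave 153, 299, 110.3, 176 and 353 CPM against 3 reads over the cultures, a ratio of 6217 (95% exact interval 2127 to 30150.0). MN12 and MN15 held the most of both. Each of these genes has a near-identical copy, so the split of reads between copies is uncertain.

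**Figure D2:**
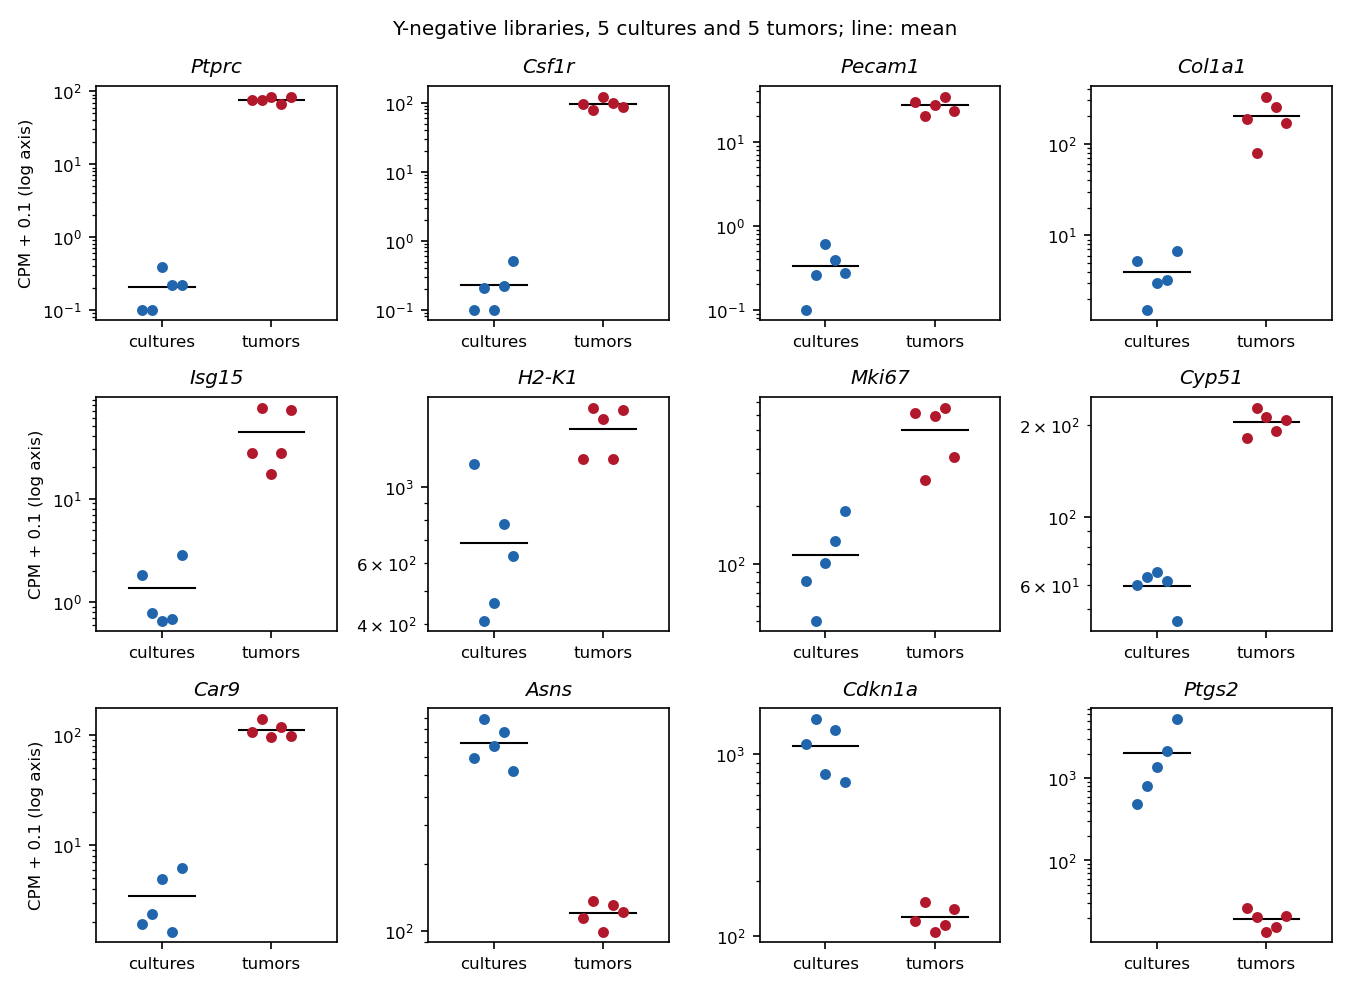
CPM plus 0.1 on a log axis for 12 genes in the 5 cultures (blue) and 5 tumors (red) without the Y chromosome, each point 1 library and each line the group mean. Tumor and culture values do not overlap for Ptprc, Csf1r, Pecam1, Col1a1, Isg15, Mki67, Cyp51, Car9, Asns, Cdkn1a or Ptgs2, and come close for H2-K1.

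Antigen presentation genes were higher in tumors, most steeply for MHC class II, which displays peptides to helper T cells and is made mainly by professional presenting cells. Of 6 tested MHC class II genes, 5 rose (median 6.80). H2-Ab1 (chr17:34263209-34269418) stood at 166, 573, 362, 159 and 505 CPM in tumors and 0 reads in the cultures, at least 10297-fold higher. H2-Aa and H2-Eb1 rose by 11.54 and 8.93, and the peptide editor H2-DMa by 4.66. Over the alternative analyses, the fitted log2 fold change ranged from 11.08 to 13.17 for H2-Aa and from 8.48 to 9.42 for H2-Eb1. Cd74, the invariant chain, was unlike them: the cultures already held 355, 418, 91.6, 948 and 126 CPM and the tumors 410.4, 859.7, 1019.5, 455 and 796 CPM, the groups overlapped and the change did not pass (log2 fold change 0.87 ± 0.52 (SE), adjusted p = 0.172). BN9, the highest culture, decided this: without it Cd74 passed as higher (1.51, adjusted p = 0.0150). The class II transactivator Ciita, listed in the tumor tables only, stood at 18.1 to 31.5 CPM.

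MHC class I genes, which every nucleated cell can use, started from a high level in culture and rose less. Of 14 tested genes of class I and peptide loading, 10 rose and 1 fell (median 1.42). H2-K1 stood at 1209, 1704, 1582, 1209 and 1675 CPM in tumors and 1165, 408, 461, 782 and 631 CPM in cultures (log2 fold change 1.10 ± 0.27 (SE), adjusted p = 0.00410), and B2m, the shared light chain, rose by 0.87, a call lost without MN12 and MN15. BN2 was the highest culture for both and lay close to the lowest tumors. The immunoproteasome subunit Psmb9 showed a wider gap, 57.5, 192, 78.7, 55.4 and 171 CPM against 7.46, 0.106, 1.97, 1.01 and 2.43 CPM (log2 fold change 5.42 ± 0.72 (SE), adjusted p = 4.76e-05), again highest in MN12 and MN15. Tap1, which pumps peptides into the endoplasmic reticulum, rose by 1.28, Tapbp by 1.61 and the proteasome activator Psme1 by 2.69. Without MN12 and MN15, 9 of the 14 passed as higher.

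Interferon-stimulated genes, the antiviral and immune programme switched on by interferon receptors, rose almost without exception. Of 19 tested, 18 rose and 0 fell (median 5.02), and 17 were past a fold of 2. Isg15, a ubiquitin-like modifier, stood at 27.7, 75.3, 17.2, 27.7 and 70.8 CPM in tumors and 1.72, 0.690, 0.563, 0.592 and 2.78 CPM in cultures (log2 fold change 5.11 ± 0.56 (SE), adjusted p = 1.05e-05). The deubiquitinase Usp18, which dampens the pathway, gave 22.2, 42.4, 19.9, 25.3 and 34.7 CPM against 0.106 to 1.18 CPM (log2 fold change 5.42 ± 0.44 (SE), adjusted p = 8.16e-07), with no overlap. The interferon-gamma-induced GTPases Gbp3 and Igtp rose by 5.74 and 6.6. The summed level of the list was 2046 and 2139.7 CPM in MN12 and MN15, 1303 to 1328 CPM in MN11 and MN13 and 1256 CPM in MN14, against at most 455 CPM in cultures. The 10 pan-leukocyte genes summed to 549, 666, 651, 491 and 702 CPM in MN11 to MN15. MN12 and MN15 were the highest and MN14 the lowest for both lists, while MN13 was near MN12 for pan-leukocyte genes only. The part of leukocytes in these lists was not tested.

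The promoters of this list hold a motif in common. RefSeq promoters (build GRCm38.p6, from 250 bases before to 50 after a gene's start) were given for 14 of the 19 tested members, and the interferon regulatory factor motif GAAANNGAA, on either strand, was in 11 of them (78.6%), against 9.76% of all 27025 genes with a promoter. The windows of the first members of the list that rose and hold the motif before the start show it repeated, with the motif in capitals on whichever strand it lies.
Isg15 promoter, bases -106 to -18 from the start, chr4:156200836-156200924, minus strand: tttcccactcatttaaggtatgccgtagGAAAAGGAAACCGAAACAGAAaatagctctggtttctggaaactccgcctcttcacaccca
Ifit1 promoter, bases -124 to -36 from the start, chr19:34640765-34640853, plus strand: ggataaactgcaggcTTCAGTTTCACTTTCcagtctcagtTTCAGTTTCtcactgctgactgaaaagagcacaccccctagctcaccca
A match describes the letters and does not show binding.

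Matrix genes rose in the tumors, with exceptions among basement membrane collagens that MB49 cells already make. Of 17 tested collagen and crosslinking genes, 10 rose and 2 fell (median 3.79), while with library size scaling 11 rose and 0 fell. Col1a1, the main chain of fibrillar collagen (chr11:94936224-94953042), stood at 189.7, 78.9, 329, 254 and 169 CPM in tumors and 5.16, 1.43, 2.93, 3.14 and 6.69 CPM in cultures (log2 fold change 5.72 ± 0.46 (SE), adjusted p = 8.09e-07). Col3a1 and Col1a2 rose by 7.98 and 7.30. Col6a3, a microfibrillar chain, was near 0 in cultures and stood at 735, 336, 603, 796 and 322 CPM in tumors (log2 fold change 8.94 ± 0.77 (SE), adjusted p = 1.35e-06). Col4a1, a basement membrane chain, was as abundant in cultures, 728 to 1002 CPM, as in tumors, 468 to 1003 CPM (log2 fold change -0.23 ± 0.21 (SE), adjusted p = 0.384), and the sign of its small difference turned with library size scaling and without MN12 and MN15.

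Of 14 tested matrix glycoproteins and proteoglycans, 12 rose and 0 fell (median 3.10). Postn, the matricellular protein periostin, gave 42.3, 43.4, 131, 102 and 82.4 CPM in tumors and 0.0531 to 0.230 CPM in cultures (log2 fold change 8.82 ± 0.46 (SE), adjusted p = 1.94e-08). Fibronectin, encoded by Fn1, was abundant in both, 1288, 496, 959.8, 1415 and 553 CPM against 148, 483, 282, 379 and 147 CPM (log2 fold change 1.71 ± 0.39 (SE), adjusted p = 0.00233), and was lowest among tumors in MN12 and MN15. Without the other 3 tumors its call was lost. The collagen-binding gene Sparc rose by 1.20, tenascin C (Tnc) by 6.01 and fibrillin 1 (Fbn1) by 6.05. The 5 fibroblast genes in both tables summed to 478 to 614 CPM in tumors and 405 to 749 CPM in cultures, and all 7 listed in the tumor tables only were detected in every tumor. The part of fibroblasts in the matrix genes was not tested. The growth factor carrier Igfbp3, among the 15 largest rises, was nearly silent in culture: 140.4, 121, 111, 160.4 and 154 CPM in tumors against 0.172, 0.0531, 0.113, 0.296 and 0.178 CPM (log2 fold change 9.69 ± 0.28 (SE), adjusted p = 1.23e-10).

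Proteases and their inhibitors went both ways. Of 16 tested, 5 rose (31.2%) and 5 fell (31.2%), near the 25.3% and 26.9% of all genes, and 3 rose without MN11, MN13 and MN14. The gelatinase Mmp2 rose by 2.58 and cathepsin K (Ctsk) by 5.64, while the plasminogen activator Plau and its receptor Plaur fell (-1.94 and -2.53) on the log2 scale. Plaur stood at 84.9, 108, 65.2, 83.8 and 91.6 CPM in tumors and 323, 745, 353, 673 and 409 CPM in cultures. Mmp14, the membrane-type collagenase, was read at 222 to 378 CPM in tumors and 303 to 492 CPM in cultures (log2 fold change -0.27 ± 0.18 (SE), adjusted p = 0.244).

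Secreted inflammatory factors that the cultured cells made in quantity were much lower in tumors. Of 13 tested chemokines and cytokines, 8 fell and 4 rose (median -2.21), and all 8 were past a fold of 2. Cxcl1, a neutrophil attractant (chr5:90891241-90893115), stood at 17.2, 32.1, 7.61, 10.1 and 16.7 CPM in tumors and 807, 376, 345, 1263 and 308 CPM in cultures (log2 fold change -5.21 ± 0.52 (SE), adjusted p = 4.84e-06). No tumor came near the lowest culture. Cxcl2 and Cxcl3, of the same family, fell (-4.60 and -4.86) on the log2 scale, and the granulocyte growth factor Csf3 (-4.66). Csf1, which feeds macrophages, gave 197, 135, 189, 199 and 181 CPM in tumors and 2421, 1212, 822, 2575 and 394 CPM in cultures (log2 fold change -3.04 ± 0.43 (SE), adjusted p = 7.77e-05). Ccl2, a monocyte attractant, ranged widely among cultures, 1293, 338, 97.5, 1319.5 and 88.8 CPM, against 62.1, 96.7, 42.4, 47.0 and 113 CPM in tumors (log2 fold change -3.12 ± 0.71 (SE), adjusted p = 0.00250), and without MN11, MN13 and MN14 it did not pass. The members that rose include Ccl8 (7.24), a chemokine made by macrophages, Cxcl16 (6.92) and the CSF1 receptor ligand Il34 (1.85).

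Ptgs2 was among the 15 largest falls of the genes that the naming rule covers. It encodes the inducible cyclooxygenase that starts prostaglandin synthesis (chr1:150100031-150108227). It stood at 26.3, 20.6, 13.4, 15.5 and 21 CPM in tumors and 490.1, 799, 1369.9, 2145 and 5339 CPM in cultures (log2 fold change -6.71 ± 0.64 (SE), adjusted p = 3.35e-06). The cultures varied widely among themselves, with BN2 the lowest and BN10 the highest, yet each was far above every tumor. Adh7, a retinol- and alcohol-oxidising dehydrogenase, fell from 171, 104, 129, 125 and 84.2 CPM to 1.72, 3.52, 1.23, 2.60 and 0.951 CPM (log2 fold change -5.94 ± 0.35 (SE), adjusted p = 6.15e-08). Further genes among the 15 largest falls were the GTPase Rnd1 (-4.66), the carboxylesterase Ces2e (-4.67), the synaptic vesicle gene Svop (-5.72), the guidance receptor Robo3 (-4.66), Mab21l3 (-5.15), Tmem270 (-6.69) and the olfactory receptor gene Olfr1318 (-5.43). Among the 15 largest rises were the lysosomal proteases Ctss (10.22) and Ctsz (8.42) and the mitochondrial carrier Ucp2 (8.54), each at under 1 CPM in every culture.

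Immediate early genes, which respond within minutes to growth factors and stress, were lower in tumors: 8 of 13 tested fell and 1 rose (median -0.96). Junb stood at 153, 204, 147, 151 and 181 CPM in tumors and 784, 622, 661, 1102 and 459 CPM in cultures (log2 fold change -2.12 ± 0.23 (SE), adjusted p = 8.24e-06), and Egr1 and Ier2 fell (-2.48 and -1.54). Fos itself was at 9.90 to 21.1 CPM in tumors and 6.63 to 20.8 CPM in cultures (log2 fold change 0.15 ± 0.35 (SE), adjusted p = 0.738). Without BN2, BN6, MN12 or the set of MN11, MN13 and MN14, 0 immediate early genes rose. Of 14 tested TGF-beta and CCN genes, 6 fell (42.9%) and 3 rose (21.4%), beside 26.9% and 25.3% of all genes. Without MN11, MN13 and MN14, 6 of them fell and 0 rose. The activin subunit Inhba fell (-3.49), Tgfb2 (-2.89) and the matricellular gene Ccn1 (-2.39), while Tgfb1 was read at 87.9 to 132 CPM in tumors and 52.8 to 134 CPM in cultures (log2 fold change 0.13 ± 0.24 (SE), adjusted p = 0.680).

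Checkpoint genes, which restrain or tune T cells, were split by gene. Of 10 tested, 5 rose (50%) and 4 fell (40%), beside 25.3% and 26.9% of all genes. Cd274, which encodes PD-L1, stood at 38.2, 55.8, 42.7, 45.8 and 55.4 CPM in tumors and 24.3, 9.18, 22.4, 22 and 18.2 CPM in cultures (log2 fold change 1.31 ± 0.23 (SE), adjusted p = 4.90e-04), with no overlap. Cd80, a ligand of CD28 and CTLA-4 that is usually a gene of presenting cells, was high in cultured cells and fell: 6.19, 10.2, 7.22, 7.94 and 9.56 CPM against 111, 192, 97.0, 249 and 137 CPM (log2 fold change -4.26 ± 0.28 (SE), adjusted p = 1.43e-07). Pvr, the poliovirus receptor and TIGIT ligand, fell (-2.17). Tnfrsf14 rose by 3.83, and Lgals9 by 0.83, a call lost without MN11, MN13 and MN14. Of 9 tested angiogenic factors, 4 rose (44.4%) and 3 fell (33.3%), beside the same shares of all genes. Angpt2 (3.52) and Fgf2 (3.30) rose, while Vegfa, the main vessel growth factor, fell (-0.64): it was read at 191, 187, 136, 173 and 170.3 CPM in tumors and 256, 412, 229, 252.3 and 191 CPM in cultures, the groups met at their edges, and the call was lost with library size scaling or without BN3, MN13 or the set of MN11, MN13 and MN14. Angptl4, which responds to hypoxia and lipids, rose by 1.68.

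Proliferation genes were higher in tumors than in cultures. Of 25 tested DNA replication genes, 18 rose and 0 fell (median 0.84), and of 23 mitosis genes 20 rose and 0 fell (median 0.93). Mki67, the proliferation marker Ki-67 (chr7:135689784-135716361), stood at 619, 274, 594, 658 and 363 CPM in tumors and 81.2, 50.2, 101, 131 and 189.9 CPM in cultures (log2 fold change 2.18 ± 0.34 (SE), adjusted p = 1.82e-04). MN12 and MN15 were the lowest tumors and still above every culture. Mcm6 and Mcm4, subunits of the replicative helicase, rose by 1.81 and 1.85, with Mcm6 at 228, 154, 274, 262 and 215 CPM against 86.2, 48.9, 59.9, 39.0 and 89.6 CPM. Ccnb1 and Ccnb2, the mitotic cyclins, rose by 0.88 and 1.98, Ccna2 by 1.70 and the transcription factor Foxm1 by 1.52. The kinase gene Cdk1 did not pass, at 139.7 to 215 CPM in tumors and 107 to 191 CPM in cultures (log2 fold change 0.24 ± 0.19 (SE), adjusted p = 0.304), nor did Mcm2 (log2 fold change 0.27 ± 0.16 (SE), adjusted p = 0.186). With MN11, MN13 and MN14 left out, 14 replication and 13 mitosis genes passed.

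Short motifs known from cell cycle promoters were frequent among these genes. The E2F motif, TTTGGCGC or TTTCGCGC on either strand, was in 7 of the 19 replication genes with a RefSeq promoter (36.8%) and in 0.929% of all genes with one. The CHR motif TTTGAA, a mark of genes expressed in late cell cycle, was in 13 of 19 mitosis genes (68.4%) and in 20.2% of all. The first 2 members of each list that rose and hold a motif before the start are shown, with the motif in capitals. In Mcm5, whose call was lost without MN11, MN13 and MN14, the E2F motifs of both strands overlap.
Mcm5 promoter, bases -189 to -102 from the start, chr8:75109320-75109407, plus strand: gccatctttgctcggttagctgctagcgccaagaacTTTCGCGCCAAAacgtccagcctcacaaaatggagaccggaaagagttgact
Mcm6 promoter, bases -87 to -1 from the start, chr1:128359706-128359792, minus strand: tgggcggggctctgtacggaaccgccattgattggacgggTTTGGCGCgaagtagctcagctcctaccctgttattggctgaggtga
Mki67 promoter, bases -138 to -53 from the start, chr7:135716432-135716517, minus strand: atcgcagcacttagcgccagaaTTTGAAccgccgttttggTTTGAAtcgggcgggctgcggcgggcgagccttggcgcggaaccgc
Ccnb2 promoter, bases -207 to -122 from the start, chr9:70421676-70421761, minus strand: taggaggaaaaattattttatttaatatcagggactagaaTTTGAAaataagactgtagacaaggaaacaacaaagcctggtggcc

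Cholesterol synthesis genes were higher in tumors almost throughout, and fatty acid synthesis genes in part. Of 19 tested genes of cholesterol synthesis and uptake, 18 rose and 0 fell (median 1.49), beside 25.3% and 26.9% of all genes. Tumor and culture values of 17 of the 19 did not overlap, beside 36.7% of all genes. Cyp51, the lanosterol demethylase, stood at 182, 228, 213, 191 and 208 CPM in tumors and 59.7, 63.4, 66.0, 61.5 and 45.6 CPM in cultures (log2 fold change 1.79 ± 0.14 (SE), adjusted p = 8.19e-07). Sqle, the squalene epoxidase, gave 269.8, 256, 284, 282 and 229 CPM against 81.0, 106, 107, 96.1 and 79.3 CPM (log2 fold change 1.49 ± 0.15 (SE), adjusted p = 4.04e-06). The groups did not overlap for either gene. The sterol sensor Insig1 rose by 2.3. Of 8 tested fatty acid synthesis genes, 4 rose and 0 fell: the desaturase Scd2 by 1.66, the synthase Fasn by 1.25 and the elongase Elovl6 by 1.36, while Scd1 (log2 fold change 0.22 ± 0.20 (SE), adjusted p = 0.374) and Acaca (log2 fold change 0.33 ± 0.20 (SE), adjusted p = 0.185) did not pass. With MN11, MN13 and MN14 left out, 16 cholesterol and 2 fatty acid genes passed, and Fasn was among those lost. The strict sterol response motif TCACNCCAC was in 1 of 13 cholesterol genes with a promoter (7.7%), Hmgcs1, and in 1.44% of all genes. It is shown in capitals.
Hmgcs1 promoter, bases -177 to -89 from the start, chr13:119690174-119690262, plus strand: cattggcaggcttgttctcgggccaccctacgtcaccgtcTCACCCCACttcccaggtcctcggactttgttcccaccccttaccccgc

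Targets of hypoxia-inducible factors, which accumulate when oxygen is short, rose in 9 of 12 cases and fell in 0 (median 1.12). Car9, a carbonic anhydrase and a classical hypoxia marker (chr4:43506966-43513729), stood at 106, 140.4, 95.8, 118 and 97.3 CPM in tumors and 1.84, 2.28, 4.84, 1.54 and 6.16 CPM in cultures (log2 fold change 5.07 ± 0.36 (SE), adjusted p = 2.80e-07). Ankrd37 rose by 4.23, the oxygen sensor Egln1 by 1.49 and the demethylase Kdm3a by 1.37. Egln3 was less separated: BN10 held the highest of its culture values and lay above all tumors, 82.3, 54.8, 104, 123 and 287 CPM against 216, 239, 245, 259 and 232 CPM (log2 fold change 0.87 ± 0.34 (SE), adjusted p = 0.0465), and its call was lost without BN2, BN3, BN6, BN9, any 1 tumor or either set of tumors. The short hypoxia response core, ACGTG or GCGTG, was in all 9 members with a promoter but also in 46.7% of all genes. The core in Car9 lies just before the start and reads CACGT on this strand.
Car9 promoter, bases -58 to -1 from the start, chr4:43506968-43507025, plus strand: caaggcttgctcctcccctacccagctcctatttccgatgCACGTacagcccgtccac
Of 14 tested glycolysis genes, 9 rose and 1 fell (median 0.61). The phosphofructokinase subunit Pfkl stood at 206, 196, 201, 217 and 199.7 CPM in tumors and 21.3, 27.3, 48.6, 18.5 and 77.3 CPM in cultures (log2 fold change 2.40 ± 0.34 (SE), adjusted p = 7.97e-05), Tpi1 rose by 1.71, Pkm by 0.65 and the lactate exporter Slc16a3 by 5.71. Ldha, lactate dehydrogenase, rose by 0.61 but lost its call without BN2, BN9, MN12, MN15 or the pair of MN12 and MN15, and the hexokinase Hk2 did not pass (log2 fold change -0.21 ± 0.21 (SE), adjusted p = 0.420).

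Nuclear and mitochondrial genes of respiration moved in opposite directions. Of 20 tested nuclear genes of oxidative phosphorylation, 10 fell and 0 rose (median -0.48). The ATP synthase gene Atp5b stood at 1149, 1457, 1281, 1179 and 1383 CPM in tumors and 3349.7, 3082, 2441, 2941 and 2076 CPM in cultures (log2 fold change -1.11 ± 0.18 (SE), adjusted p = 2.77e-04), and Cyc1 and Cox5a fell (-1.28 and -1.73). Of 12 tested mitochondrially encoded genes, 10 rose and 0 fell (median 1.64). mt-Nd1, a complex I subunit, stood at 1682, 1227, 2164, 1944 and 1584 CPM in tumors and 949, 237, 1095, 484 and 601 CPM in cultures (log2 fold change 1.35 ± 0.34 (SE), adjusted p = 0.00465), and BN3 was the lowest culture. Its call was lost without MN11, MN13 and MN14. mt-Co1 did not pass (log2 fold change 0.50 ± 0.29 (SE), adjusted p = 0.168). Mitochondrially encoded genes took 1.40% ± 0.385 of reads in tumors and 0.695% ± 0.263 in cultures (SD, n = 5 each, two-sided exact permutation test p = 0.0238, adjusted p = 0.0714, smallest possible p 0.00794). Nuclear copies of mitochondrial genes can share reads with several of them. The nuclear list depended on the tumor set: 16 genes fell without MN12 and MN15, while 4 fell and 3 rose without the other 3. With library size scaling 6 nuclear genes fell and 1 rose. Of the mitochondrially encoded genes, 11 rose without MN12 and MN15 and 6 without the other 3.

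Stress programmes that were strong in culture were lower in tumors. Of 21 tested genes of the integrated stress response and serine synthesis, which the factor ATF4 controls when amino acids run short, 18 fell and 0 rose (median -1.72). Atf4 stood at 351, 586, 297, 339 and 493 CPM in tumors and 1568, 1996, 1019, 1731 and 955 CPM in cultures (log2 fold change -1.82 ± 0.26 (SE), adjusted p = 9.37e-05). Asns, asparagine synthetase, gave 115, 136, 99.6, 131 and 121 CPM against 594, 891, 673, 774 and 518 CPM (log2 fold change -2.52 ± 0.18 (SE), adjusted p = 3.40e-07), and Trib3, Ddit3 and Sesn2 fell (-3.06, -3.07 and -2.68). The cystine importer Slc7a11 showed the widest gap of those named, 26.9, 19.2, 16.5, 18.6 and 17.5 CPM against 146, 240.2, 346, 205 and 429.7 CPM (log2 fold change -3.79 ± 0.29 (SE), adjusted p = 4.88e-07). Between 16 and 21 members fell in each alternative analysis, and 0 rose.

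Of 12 tested unfolded protein response genes, 7 fell and 0 rose (median -0.61). Hspa5, the endoplasmic reticulum chaperone BiP, stood at 1112, 1257, 912, 971 and 1139 CPM in tumors and 8827, 7883, 4668, 8886 and 2809.7 CPM in cultures (log2 fold change -2.62 ± 0.31 (SE), adjusted p = 1.80e-05). Hyou1 and Herpud1 fell (-1.42 and -1.37). Xbp1 fell (-0.58), a call lost with upper quartile or library size scaling and without BN3, MN13, MN14 or the set of MN11, MN13 and MN14. With library size scaling 4 members fell and 1 rose, and without MN11, MN13 and MN14 3 members fell and 1 rose. Without any 1 of BN3, MN13 or MN14, 4 fell.

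Targets of p53, the damage-responsive tumor suppressor, fell more than any other list of at least 10 tested genes shown here: 12 of 14 fell, 1 rose, and the median was -2.59. Cdkn1a, the cell cycle inhibitor p21 (chr17:29090976-29100727), stood at 121, 154, 106, 115 and 141 CPM in tumors and 1135, 1572, 778, 1363 and 705 CPM in cultures (log2 fold change -3.12 ± 0.25 (SE), adjusted p = 6.82e-07). Mdm2, which degrades p53, gave 157, 195, 138, 158 and 164 CPM against 1129.7, 1143, 789, 964 and 804 CPM (log2 fold change -2.57 ± 0.18 (SE), adjusted p = 2.10e-07). The kinase Plk2 and the cytokine Gdf15 fell (-4.56 and -4.58), and Ccng1 (-2.61). Sesn1 went the other way, 51.9, 53, 54.5, 39.8 and 37.6 CPM against 4.36, 6.95, 6.81, 6.33 and 6.93 CPM (log2 fold change 2.91 ± 0.19 (SE), adjusted p = 1.41e-07). The counts of 12 and 1 held in all 22 alternative analyses.

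Of 12 tested NRF2 targets, which defend against oxidants, 7 fell and 2 rose. Txnrd1, thioredoxin reductase, stood at 144, 125, 142, 149.7 and 127 CPM in tumors and 519.6, 657, 544, 529 and 826 CPM in cultures (log2 fold change -2.16 ± 0.17 (SE), adjusted p = 6.88e-07), and Osgin1 fell (-3.17). Hmox1, haem oxygenase, rose, 313, 334, 277, 296 and 311 CPM against 93.6, 202, 99.3, 99.2 and 141 CPM (log2 fold change 1.27 ± 0.21 (SE), adjusted p = 2.91e-04). Nqo1 fell (-3.56) but was low and uneven in cultures, 4.76, 6.95, 2.19, 34.9 and 54.2 CPM, and its call was lost without MN11, MN13 and MN14. Of 9 tested heat shock genes, 3 rose (33.3%) and 2 fell (22.2%), near the 25.3% and 26.9% of all genes. The inducible Hspa1b rose by 2.48 and Hspa8 by 1.32, and the mitochondrial chaperone Hspd1 fell (-1.07).

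Translation genes followed the 2 sets of tumors. Of 23 tested cytosolic ribosomal protein genes, 8 fell (34.8%) and 0 rose (median -0.30), beside 26.9% and 25.3% of all genes. Their summed level was 33030.0 CPM in MN11, 31130.0 CPM in MN13 and 31058 CPM in MN14, but 72259 CPM in MN12 and 70631 CPM in MN15, against 50360.0 to 70671 CPM in cultures. Rplp0, of the large subunit stalk, shows it: 3451, 8631, 3062, 3190.2 and 7834 CPM in tumors and 9126, 6906, 9694, 6721 and 4702 CPM in cultures (log2 fold change -0.51 ± 0.34 (SE), adjusted p = 0.225). Without MN12 and MN15, 20 genes fell and 0 rose, and without the other 3, 1 fell and 5 rose, so no direction holds for the list. The constitutive proteasome behaved likewise, with 7 of 20 fallen (35%), beside the same 26.9% of all genes. Without MN12 and MN15, 16 of its genes fell, and without the other 3 tumors 4 fell and 2 rose. Psmc2 and Psmc1, of its base, fell (-1.32 and -1.15).

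**Figure D3:**
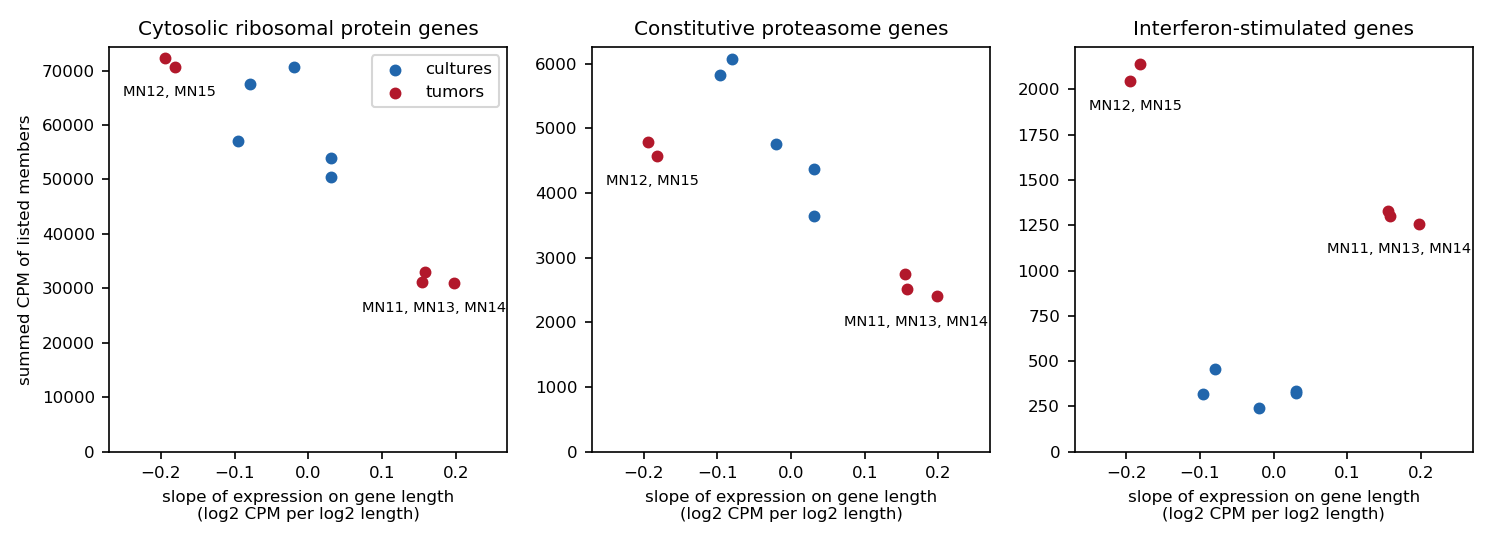
Summed CPM of cytosolic ribosomal protein, constitutive proteasome and interferon-stimulated genes against the slope of expression on gene length, 1 point per library (blue cultures, red tumors). MN12 and MN15 stand apart from MN11, MN13 and MN14 on both axes, and for interferon-stimulated genes both sets lie above all cultures.

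Ribosome biogenesis genes, which assemble ribosomes in the nucleolus, fell in 11 of 16 cases and rose in 0 (median -0.47), and 9 fell in either set of tumors alone, with 1 rise without MN12 and MN15. Without any 1 of BN3, BN6, MN11, MN13 or MN14, 7 fell. The snoRNP protein Nop56 stood at 195, 267, 179.8, 188 and 274 CPM in tumors and 715, 523, 389, 402 and 239 CPM in cultures (log2 fold change -1.04 ± 0.26 (SE), adjusted p = 0.00419), a call lost without MN11, MN13 and MN14, and Fbl and Ddx21 fell (-1.04 and -0.96). Myc, the transcription factor that drives this programme, gave 175, 135, 125, 174 and 135 CPM against 570.0, 709, 480.0, 1065 and 425 CPM (log2 fold change -2.13 ± 0.25 (SE), adjusted p = 1.66e-05), with no overlap. Ncl, nucleolin, did not pass (log2 fold change 0.27 ± 0.20 (SE), adjusted p = 0.276). With library size scaling 6 genes of the list fell and 0 rose.

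Epithelial and mesenchymal identity genes changed in both directions. The keratins Krt8 and Krt18, which label simple and urothelial epithelium, were abundant in both groups and rose: Krt8 gave 2173, 3101, 2343, 2202 and 2464 CPM in tumors and 497, 493, 1102, 400.3 and 1140.4 CPM in cultures (log2 fold change 1.76 ± 0.30 (SE), adjusted p = 3.69e-04), and Krt18 rose by 0.97. The epithelial adhesion genes Cdh1 and Epcam were low, at 0.895 to 3.12 and 0 to 0.822 CPM in tumors and 0.106 to 0.402 and 0 to 0.237 CPM in cultures, and Cdh1 rose (log2 fold change 3.27 ± 0.50 (SE), adjusted p = 1.46e-04). The epithelial factors Gata3 and Grhl2 fell (-1.71 and -2.26), and the call of Grhl2 was lost without MN11, MN13 and MN14. In the cultures, labelled bladder cancer cells, these defining epithelial adhesion genes were thus at or near 0. Of 9 tested mesenchymal genes, 2 rose (22.2%) and 3 fell (33.3%), near the 25.3% and 26.9% of all genes. Vim, vimentin, was at 3770.4, 3263, 4544, 4213 and 3322 CPM in tumors and 1563, 1650.4, 2628, 1999.7 and 7355 CPM in cultures, where BN10 exceeded every tumor (log2 fold change 0.33 ± 0.38 (SE), adjusted p = 0.490). Without BN10, Vim passed as higher (0.96, adjusted p = 0.00204). Snai2 fell (-2.32) and Cd44 (-1.47), and the calcium-binding gene S100a4 rose by 3.55 with Zeb2 (0.73), whose call was lost without MN11, MN13 and MN14. In that alternative 1 mesenchymal gene rose and 3 fell.

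Of 19 tested actin and adhesion genes, 7 fell (36.8%) and 4 rose (21.1%), beside 26.9% and 25.3% of all genes. With library size scaling 5 fell and 7 rose. Without MN11, MN13 and MN14 6 fell and 1 rose, and without BN10 7 rose. Actb fell (-0.64), a call lost with upper quartile or library size scaling, with the length trend removed and without MN11, MN13 and MN14. The tropomyosin Tpm1 and the mechanically responsive Ankrd1 fell (-1.09 and -1.81), and Tpm2 rose by 1.79. Of 12 tested circadian clock genes, 7 fell and 2 rose: the activator Arntl stood at 18.8, 16.8, 13.7, 14.7 and 15.2 CPM in tumors and 59.6, 52.8, 47.3, 94.1 and 73.8 CPM in cultures (log2 fold change -2.05 ± 0.20 (SE), adjusted p = 3.87e-06) and the repressor Nr1d1 fell (-2.36). Without MN11, MN13 and MN14 5 clock genes fell and 0 rose, and without any 1 of BN2, BN6, BN10 or MN12 1 rose. The hour at which each library was sampled is not in the labels. Of 15 tested lysosome genes, 5 rose (33.3%) and 3 fell (20%), beside the 25.3% and 26.9% of all genes. The prosaposin gene Psap rose by 1.13 while Ctsd and Lamp1 fell (-0.76 and -0.55). The call of Lamp1 was also lost with library size scaling. Without MN11, MN13 and MN14 0 lysosome genes fell, and without MN12 and MN15 5 fell. The complement list gave 4 rises among 6, and 2 without BN9 or with either set of tumors left out, led by the C3a receptor C3ar1 (5.33) and C4b (3.80), while C3, already made in culture at 62.7 to 390.3 CPM, did not pass (log2 fold change 0.27 ± 0.35 (SE), adjusted p = 0.541). Of 10 reference genes often used for scaling, 3 rose (30%) and 1 fell (10%), beside the same 25.3% and 26.9% of all genes. Gusb (0.83) and Gapdh (0.70) were among those that rose. Without MN11, MN13 and MN14, 5 reference genes rose.

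The change from culture to tumor in Y-negative cells was set beside that in the Y-positive cells of the same line. Across 12357 genes with both values, Pearson's r was 0.889, a description in which genes are not independent and the 2 comparisons share no library. Of 6533 genes called in Y-negative cells and measured in both, 5400 were called in the same direction in Y-positive cells and 43 in the opposite one. The difference of the changes was tested in a model of 4 group means: 624 of 13340 genes passed (4.68%), 307 of them with the higher change in Y-negative cells. This count ranged from 169 without MN11 to 1046 without BN9, and leaving out MN12 (1027), MN13 (319), MN14 (207), BN6 (355) or the Y-positive libraries MB8 (303), MB11 (282), MB17 (338), MP8 (200) or MP9 (285) also moved it by over 1.5 times.

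The 5 genes of smallest p in each direction show what such a difference looks like. Nes, the intermediate filament nestin, stood at 36.2, 19.6, 33.9, 37.1 and 25.7 CPM in Y-negative tumors and 21.7, 8.97, 17.6, 30.8 and 29.1 CPM in Y-negative cultures, a change that did not pass (log2 fold change 0.49 ± 0.29 (SE), adjusted p = 0.173), against a log2 change of 3.56 in Y-positive cells, a difference of -3.04 ± 0.48 (SE), adjusted p = 0.00297. Esco2, which acetylates cohesin for sister chromatid cohesion, rose by 1.40 here and by 3.56 there (difference -2.14 ± 0.35 (SE), adjusted p = 0.00381). Ltbp2, a latent TGF-beta binding protein, did not pass in Y-negative cells (log2 fold change 0.19 ± 0.17 (SE), adjusted p = 0.354) and had a log2 change of -1.64 in Y-positive cells (difference 1.85 ± 0.22 (SE), adjusted p = 2.93e-04). Ampd3, AMP deaminase, fell (-1.78) and had a change of -3.31 in Y-positive cells (difference 1.55 ± 0.22 (SE), adjusted p = 0.00190). Gigyf1, Mbd6 and Tctn1 rose here (0.63, 0.52 and 0.94) beside changes of -0.63, -0.75 and -0.57. The calls of Gigyf1 and Mbd6 were lost without MN11, MN13 and MN14. In Y-negative cells Syngr1 and Lgalsl fell (-2.04 and -1.03) beside changes of 0.70 and 0.34. Noa1 did not pass here (log2 fold change 0.18 ± 0.19 (SE), adjusted p = 0.447) beside 1.72. Of the lists, the clock genes held the most members with a difference, 7 of 12, beside 4.68% of all genes. Many lists held 0, among them p53 targets (14 tested), integrated stress response (21), collagen (17) and oxidative phosphorylation genes (20). At a share of 4.68%, a count of 0 in lists of this size says little.

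**Figure D4:**
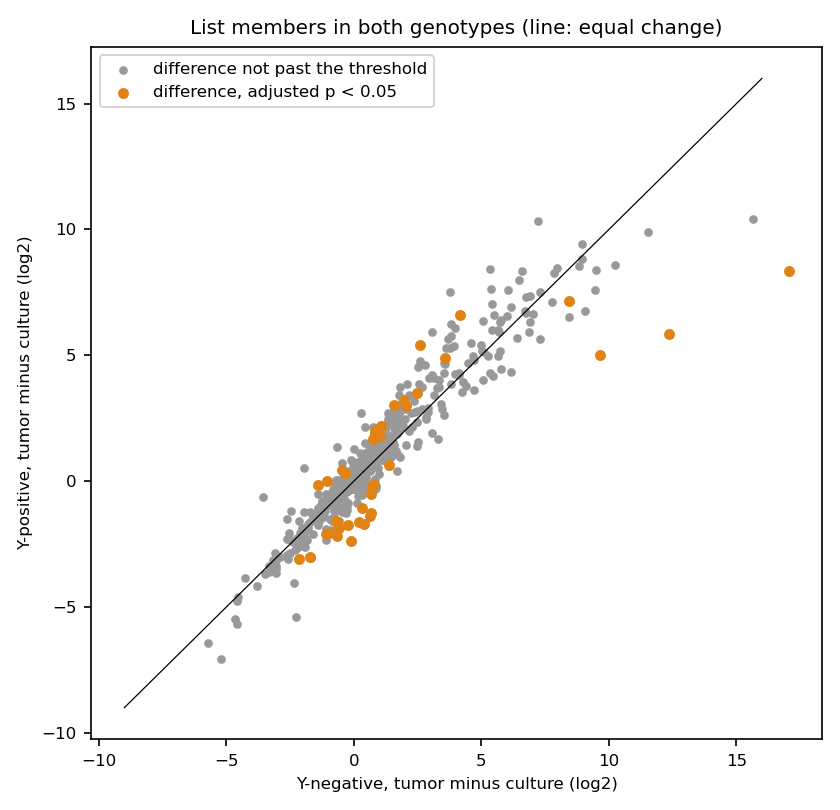
Log2 change from culture to tumor in Y-negative (horizontal) and Y-positive (vertical) cells for 540 list members, with 40 whose difference passed in orange and equal change as a line. Most members lie near the line in both directions.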

How the data were processed

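RNA-seq was analysed from 10 libraries, 5 Y-negative tumors and 5 Y-negative cultures, with 10 Y-positive libraries for the test of the difference between genotypes. Per the labels' protocols, total RNA (1.3 ug) went into a SMARTer mRNA kit. Tools listed in the submitters' processing notes are STAR 2.7.0d, RSEM 1.3.1, cutadapt 2.3, MultiQC 1.8 and FastQC 0.11.5, with build mm10. Not given in the sources used here are their roles, strand handling, counting options and annotation release. Reads of antisense neighbours and near-identical copies could not be separated. The deposited tables hold counts of reads for every gene as whole numbers, and these were tested. The authors also deposited FPKM, used only to recover library totals and gene lengths. Cultures have 14701 genes listed and tumors 28025. Of 28076 gene IDs, 28067 were found in GENCODE release M21 (GRCm38), and 263 symbols were replaced through the ID.

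The test used edgeR 4.0.16 under R 4.3.3, with TMM scaling, filterByExpr (minimum count 10, minimum total 15), quasi-likelihood F-test, Benjamini-Hochberg adjustment over all genes tested, threshold 0.05, and glmTreat against a fold of 2. Scripts were tested on simulated data. Alternatives were other scalings and filters, DESeq2 1.42.0, limma 3.58.1 (voom), all 20 libraries in 1 fit, a length-trend offset, X and Y kept, and libraries left out. Library measures were compared by exact permutation tests with scipy 1.17.1. Replicates were compared by chi-square: the closest pair (MN11 and MN14) had 7.59 per degree of freedom, so no pair agreed within counting noise and none was merged; this does not show that libraries came from separate animals or cultures.

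The comparison, the 50 gene lists and the naming rule were chosen with earlier results of these data known. Named are the first 3 genes of each list, up to 3 further members of smallest p, the 15 largest changes in each direction (protein-coding, past 2-fold, mean of at least 5 CPM, groups not overlapping, no predicted genes) and 5 genes in each direction of the difference between genotypes. Hmgcs1, Ifit1 and Mcm5 were shown for their promoters. Some genes that the rule names are not reported here. Floors (3 reads over a group) and 95% exact intervals cover counting error only.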

Additional observations from a re-analysis of the deposited data

Results flagged for a closer look

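Single libraries stood apart from the other 4 of their group, by the size of their gap relative to the group's range, in 7 of 122 sets of 5 values checked, where chance alone gives about 1 in 20. Among tumors, MN11 was lowest for Cd3e (2.21 CPM, the others 5.70 to 5.99 CPM) and highest for Slc7a11 (26.9 CPM, the others 16.5 to 19.2 CPM). MN13 was highest for Dcn (520.0 CPM, the others 361.2 to 407 CPM) and for Ighm (36.2 CPM, the others 20.7 to 21.5 CPM). Among cultures, BN10 was highest for Vim (7355 CPM, the others 1563 to 2628 CPM) and for S100a9 (1.78 CPM, the others 0 to 0.225 CPM), and BN2 was lowest for Sesn1 (4.36 CPM, the others 6.33 to 6.95 CPM).

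The change from culture to tumor differed between genotypes (adjusted p under 0.05 of edgeR's quasi-likelihood test of the difference) for 24 genes named here. Values are Y-negative minus Y-positive changes on the log2 scale. The change was higher in Y-negative cells for Ampd3 (1.55), Ctsz (1.29), Gata3 (1.32), Gigyf1 (1.29), Kdm3a (0.76), Ltbp2 (1.85), Mbd6 (1.30), Pvr (0.96), Tctn1 (1.54), Vegfa (1.02) and Zeb2 (0.94). It was lower in Y-negative cells for Adh7 (-1.44), Ccnb2 (-1.24), Esco2 (-2.14), Gusb (-1.16), Hspd1 (-1.05), Krt14 (-2.40), Lgalsl (-1.35), Nes (-3.04), Noa1 (-1.52) and Syngr1 (-2.71). Fitted differences of Hbb-bs (8.66), Hba-a1 (6.53) and Ighm (4.67) rest on 0 to 3 reads over the Y-negative cultures, so they depend on the prior count and give no size.

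Chromosome Y was left out of the comparison, and 293 reads of Kdm5d were counted over the Y-negative tumors beside 0 over the Y-negative cultures.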

How the results depend on the processing

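The number of genes called, 6645, ranged from 4540 (without MN11, MN13 and MN14) to 7429 (all 20 libraries in 1 fit) over 22 alternatives and between 5976 and 7202 when 1 library was left out. The share of calls that were higher, 48.4%, was 58.5% with upper quartile and 62.8% with library size scaling. Genes called higher ranged from 2905 to 3555 and lower from 2916 to 3647 without 1 library. Genes past a fold of 2 ranged from 1433 to 2097 without 1 library and came to 972 without MN11, MN13 and MN14, an alternative with 2 tumors left. The count of differences between genotypes (624) was 1259 with DESeq2 and 169 to 1046 without 1 library. Without 1 library, chosen after seeing the data, the slope on gene length differed by 0.011 to 0.109, the mitochondrial share by 0.594 to 0.831 percentage points (past the threshold without MN12, 0.831, adjusted p = 0.0476) and that of the 10 most abundant genes by values from -0.181 to 0.407 percentage points. The last was negative without MN12 (-0.181), MN15 (-0.178) or BN3 (-0.0920).

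Of 184 genes named and called, 162 kept call and direction in every alternative, and none of the 184 changed direction. Of 24 not called, 11 passed in at least 1 alternative. Small differences that were not called changed sign: without MN11, MN13 and MN14, Acaca (-0.11), C3 (-0.18), Fos (-0.075), Ncl (-0.032), Rplp0 (0.15), Scd1 (-0.099) and Tgfb1 (-0.096); without MN12 and MN15, Col4a1 (0.027) and Pdgfra (0.032); with library size alone, Col4a1 (0.0086) and Hk2 (0.0097); with limma-voom, Pax5 (0.22). Without 1 library, Fos ranged from -0.094 (without MN11) to 0.47, Pdgfra from -0.45 to 0.17 (without BN9) and Tgfb1 from -0.040 (without BN2) to 0.25. The causes were not tested. No paired analysis was possible because tumors and cultures share no replicate number. Genes near the count minimum, such as those at under 1 CPM in every culture, have folds that depth limits.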

Other observations

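Further Y-linked genes, listed in the tumor tables only, were read in every Y-negative tumor. Ddx3y, an RNA helicase gene, gave 118, 227, 205, 170 and 244 reads in MN11 to MN15, and Eif2s3y, a translation factor gene, gave 74, 174, 238, 55 and 179 reads. MN15 was highest for Ddx3y and MN13 for Eif2s3y.

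The deposited table of MN14 also has a normalized column that carries the name MN13 and holds MN13's values at each of its 28025 genes. Read counts of this pair coincide at 19.9% of genes. The column was not used.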
